A study of Homo sapiens with 12 samples.

Results

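Double-stranded RNA was collected with the J2 antibody from wild-type NCI-H1944 cells 24 h after a 48 h pulse of an MPS1 kinase inhibitor, and was compared with RNA collected in the same way from cells given DMSO. NCI-H1944 is a human lung adenocarcinoma line. The comparison rested on 4 of the 12 libraries of the series, chosen by their genotype and treatment labels: 2 labelled SCR MPS1i and 2 labelled SCR DMSO. SCR cells had the wild-type genotype. MPS1i stood for BAY-1217389 at 100 nM, which was washed out before the last 24 h of culture, and DMSO was its control. For comparison, 4 libraries came from cells with an IFNAR1 knockout (IFNAR1sg) given the same inhibitor or DMSO. Another 2 came from SCR cells given IFNb, recombinant interferon beta, at 5 ng/ml instead. The last 2 came from IFNAR1sg cells given IFNb at 5 ng/ml, and entered the shared fit of all 12 libraries. The line is a single cancer cell line, and the labels did not say whether the libraries of a group came from separate cultures. P-values rest on the spread within groups over all 12 libraries, largely shared across genes, and this spread may be technical.

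MPS1, encoded by TTK, is a kinase of the spindle checkpoint, which holds cells in mitosis until chromosomes are attached to the spindle. Cells in which it is blocked divide with chromosomes out of place, and such divisions are known to engage cell cycle arrest, inflammatory signalling and innate sensing of nucleic acids. J2 binds long RNA duplexes whatever their sequence. In human cells these come mostly from inverted repeats in introns, from overlapping transcripts of opposite strands and from mitochondria, and sensors of such duplexes induce interferon. Interferon-stimulated genes rose after the pulse, with 110 of 130 measured genes called higher. The account below is about the other genes and about retroviral elements.

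Reads had been counted in stranded regions of the genome, and values are given as CPM, a count scaled to a common library size after correction for composition. Of 89111 regions with enough reads to be tested, 8470 (9.5%) were called higher and 7132 (8%) lower in MPS1i than in DMSO libraries, at a Benjamini-Hochberg adjusted p under 0.05 in the quasi-likelihood test of edgeR. The number called was 7297 without MPS1i replicate 2, 9224 without MPS1i replicate 1 and 9307 without DMSO replicate 1, against 15602 with all libraries, and 5977 were higher and 9579 lower without composition factors. The classes of region went different ways. Regions inside introns had a median log2 change of -0.46, with 2392 higher and 6086 lower of 51774. Regions antisense to a gene had a median of 0.38, with 2439 higher and 234 lower of 15213, and regions between genes had a median of 0.29, with 1768 higher and 484 lower of 12494. Regions that shared bases with an exon had a median of 0.33, with 1871 higher and 328 lower of 9630. Of the exon-sharing regions with reads, 75.5% shared only 1 or 2 exon bases, and these held 91.2% of the reads of the class.

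Intronic reads took 28.0% and 27.8% of the MPS1i libraries, against 37.8% and 35.6% of the DMSO libraries, and the part of this shift in the change of any single gene was not tested. Library totals were 4173239 and 5835711 reads in MPS1i and 6801465 and 5863159 in DMSO. Without the scaling for composition the median change of all gene values moved by -0.16, and changes are relative to it. No RNA from before the J2 step was analysed here. A change in the amount of a transcript and a change in its double-stranded share therefore cannot be told apart, and neither can fewer cells carrying a transcript and less of it in each cell.

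**Figure D1:**
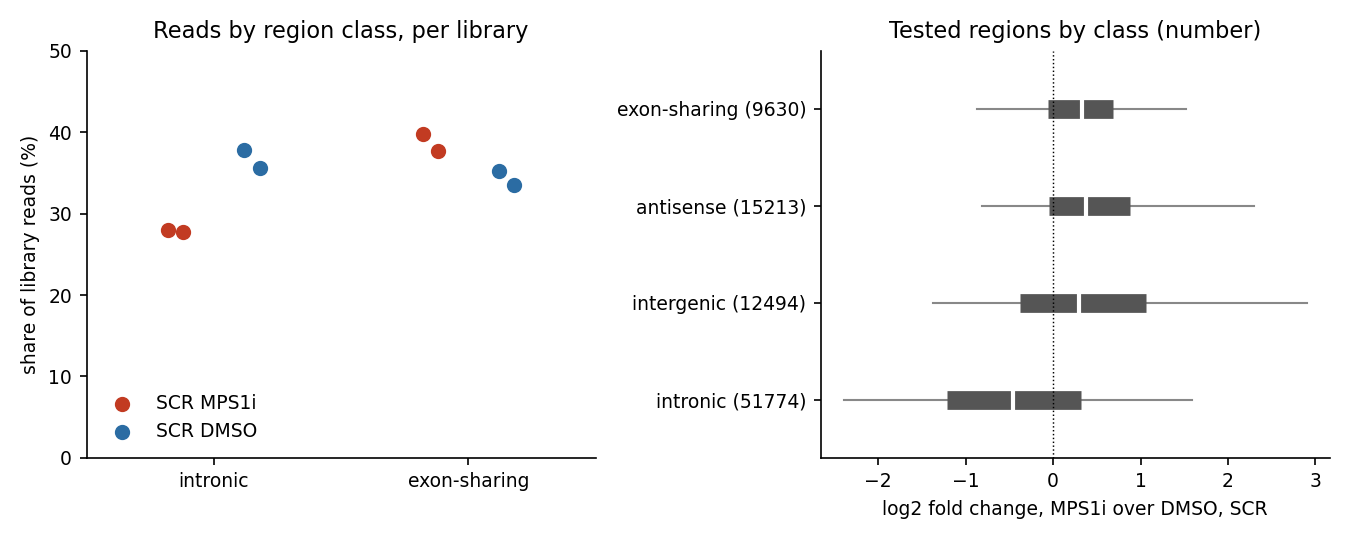
Left, share of each library's reads (%) in intronic and exon-sharing regions, with 1 point per library (red, SCR MPS1i; blue, SCR DMSO). Right, log2 fold change of tested regions by class, with the median (white line), the middle 50% (bar) and the 5th to 95th percentiles (line); intronic regions lie lowest, with a median of -0.46, and the other classes lie above 0.

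Each gene was therefore read out in 2 ways, from different reads. The gene sum added up regions inside the gene, on its strand, that shared no exon base, and was mostly intronic RNA. The exon-edge sum added up the regions that shared exon bases, and can also hold reads of the adjoining exon. Among 14348 gene sums, 3182 (22.2%) were higher and 3151 (22%) lower after the pulse, with a median log2 change of 0.07. Among 5672 exon-edge sums, 1519 (26.8%) were higher and 177 (3.12%) lower, with a median of 0.37. The balance followed the scaling: without composition factors 2569 gene sums were higher and 4034 lower, and with libraries scaled to their intronic reads alone 4456 were higher and 2119 lower. For exon-edge sums, 877 were higher and 270 lower without these factors, and 472 were higher and 432 lower with libraries scaled to their exon-sharing reads.

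Both readouts were measured for 4651 genes. Their median was -0.24 in gene sums, below the 0.07 of all gene sums, and 0.36 in exon-edge sums. With a minimum count of 20, 2222 of 11822 gene sums were higher and 3761 lower, with a median of -0.16. Gene sums of well-covered genes thus lay lower in general. The medians and the gene-sum counts of lists below are to be read beside this. In 344 of the 4651 genes both were higher and in 100 both were lower. In 377 the gene sum was lower while the exon-edge sum was higher, and in 1211 the gene sum was lower with no call at exon edges. In 347 the gene sum was higher with no call at exon edges. Calls that had the same direction in both readouts were thus fewer than those made on intronic reads alone, and a value of a gene given below without its readout is that of the gene sum. Rises and falls are given as log2 changes, MPS1i over DMSO, from n = 2 libraries per group. Their standard error comes from the fit of all libraries and not from the spread of a gene's own 2 libraries. The 2 MPS1i libraries did not overlap the 2 DMSO libraries in 72% of all gene sums and 62.5% of all exon-edge sums, and in 99.5% and 99.4% of those called, so that a lack of overlap in a called gene adds little to the call. Where a list below had 0 exon-edge sums lower, 0 also had an unadjusted p under 0.05 in that direction, and DESeq2 called 0. Exon-edge counts of lists are to be read beside the 26.8% higher and 3.12% lower over all exon-edge sums.

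**Figure D2:**
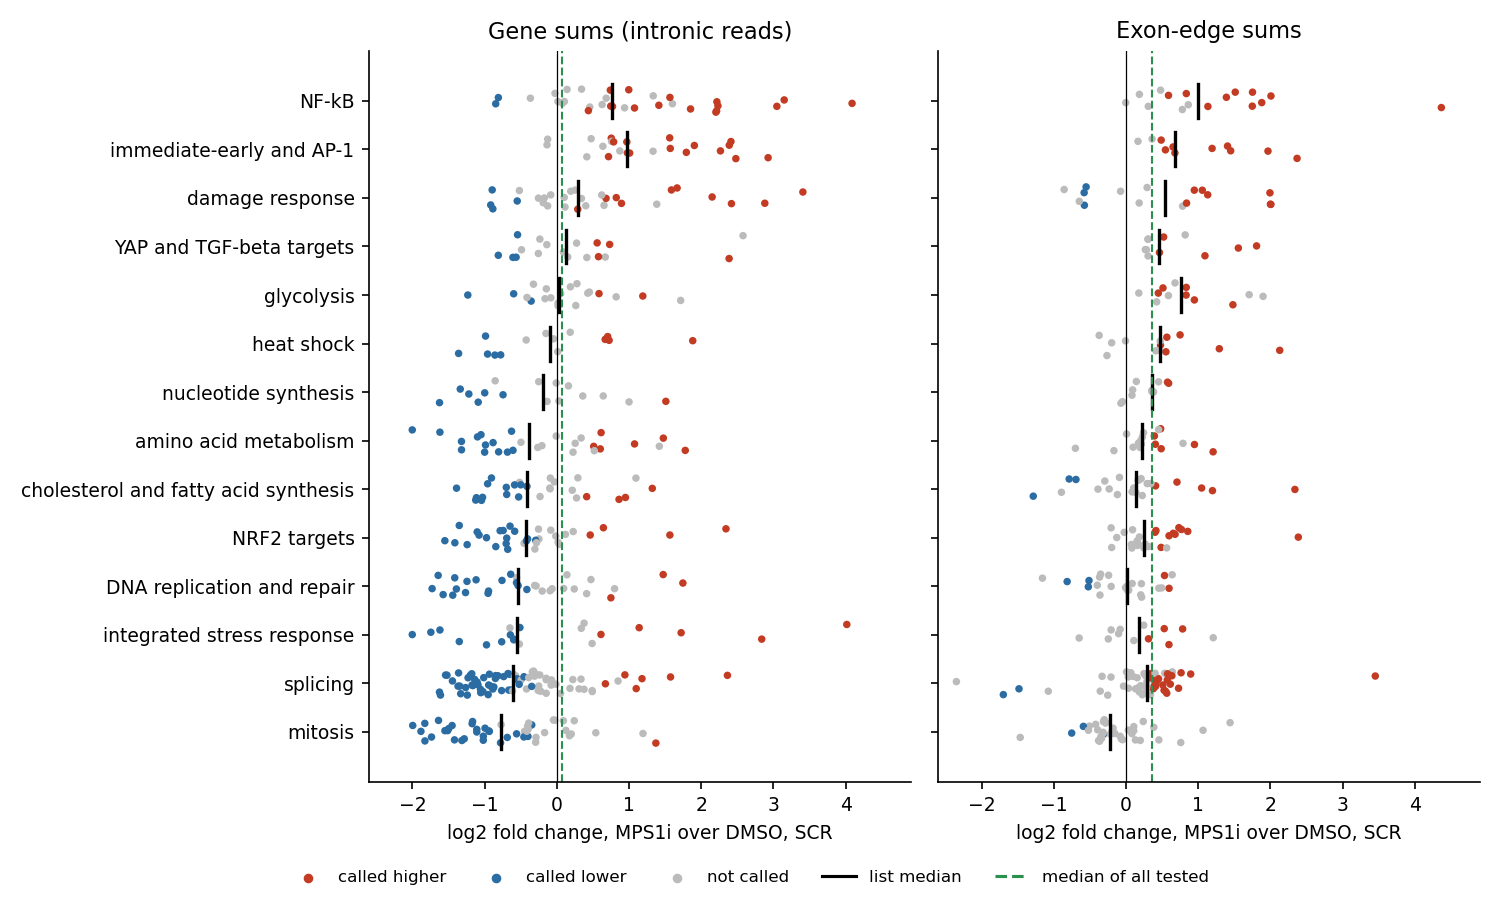
Log2 fold change (MPS1i over DMSO, SCR cells) of the measured members of 14 gene lists, as gene sums (left) and exon-edge sums (right). Each point is a gene (red for called higher, blue for called lower, grey for not called). The black bar is the list median and the dashed line the median of all tested genes (0.07 and 0.37). Among the 4651 genes with both readouts the median gene sum was -0.24. NF-kB and immediate-early genes lie to the right in both panels, and mitotic genes lie to the left in both.

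Genes of the damage response moved in both directions. Damaged or missegregated chromosomes are known to switch on genes of cell cycle arrest, cell death and DNA repair, and with them MDM2, a ubiquitin ligase that damps this response. Of 35 genes on the list, 29 had a gene sum, of which 10 were higher and 4 lower, with a median of 0.29 (7 and 7 without composition factors). Of 16 exon-edge sums, 7 were higher and 3 lower, with a median of 0.54 (4 and 3 without these factors, 3 and 3 with libraries scaled to exon-sharing reads).

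Among genes that halt the cell cycle, 4 of 8 gene sums rose and the others were not called. CDKN1A, which encodes the cyclin-dependent kinase inhibitor p21, had 19.97 and 20.1 CPM in the MPS1i libraries, against 3.95 and 3.49 CPM in the DMSO libraries. Its gene sum rose by 2.42 ± 0.27 (adjusted p = 1.13e-13). BTG2, an antiproliferative regulator of mRNA turnover, had 11.6 and 9.34 CPM in the MPS1i libraries, against 1.23 and 1.58 CPM in the DMSO libraries and rose by 2.88 ± 0.42 (adjusted p = 3.43e-09). PLK2, a polo-like kinase induced by stress, rose by 3.41 ± 0.84 (adjusted p = 0.000428) on few reads, with 2.78 and 3.7 CPM after the pulse and 0.545 and 0 CPM after DMSO. Its size hung on 1 library, since it was 7.29 without DMSO replicate 1, which leaves 0 reads in DMSO and a value set by the prior count, and 2.56 without DMSO replicate 2. GADD45A, another arrest gene, was not measured, with 5 and 3 reads in the MPS1i libraries and 0 and 0 in the DMSO libraries.

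MDM2 and some genes of repair and metabolism rose as well. Of 7 gene sums of the repair and metabolism genes 3 were higher and 1 lower, and of 5 exon-edge sums 2 were higher and 1 lower. The MDM2 exon-edge sum, among the largest on the list, had 5370.0 and 4999 CPM in the MPS1i libraries, against 2909 and 2885 CPM in the DMSO libraries, a rise of 0.84 ± 0.11 (adjusted p = 2.02e-07). The rise of its gene sum, 0.29 ± 0.10 (adjusted p = 0.00989), was small, and the call was lost when DMSO replicate 2 was left out (log2 change 0.23) and without composition factors (0.12). RRM2B, a damage-induced subunit of ribonucleotide reductase, rose in both readouts, by 1.67 ± 0.26 (adjusted p = 4.59e-08) in the gene sum and by 0.95 ± 0.13 (adjusted p = 1.44e-06) at exon edges. XPC and DDB2 both recognise damaged DNA in nucleotide excision repair. XPC had 24.01 and 22.4 CPM in the MPS1i libraries, against 12.4 and 13.8 CPM in the DMSO libraries, a rise of 0.82 ± 0.21 (adjusted p = 0.000535) in its gene sum, and was not called at exon edges (adjusted p = 0.967). DDB2 had 12.1 and 16.03 CPM in the MPS1i libraries, against 2.73 and 4.44 CPM in the DMSO libraries at exon edges, a rise of 2.0 ± 0.30 (adjusted p = 4.79e-06), while its gene sum was not called (adjusted p = 0.318).

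Other members fell, among them genes that restrain the damage response. MDM4, a relative of MDM2, had 19.7 and 26.96 CPM in the MPS1i libraries, against 40.1 and 48.3 CPM in the DMSO libraries, and fell by 0.90 ± 0.17 (adjusted p = 2.57e-06). PPM1D, a phosphatase that reverses damage signalling, had 13.9 and 12.2 CPM in the MPS1i libraries, against 24.7 and 23.1 CPM in the DMSO libraries and fell by 0.89 ± 0.21 (adjusted p = 0.000173). PERP, a membrane protein linked to cell death, fell by 0.92 ± 0.22 (adjusted p = 0.00032), and CMBL, a hydrolase, fell by 0.55 ± 0.11 (adjusted p = 5.5e-06). BAX, which drives cell death, was not called, with 8.85 and 7.75 CPM after the pulse and 8.18 and 9.35 CPM after DMSO (adjusted p = 0.828).

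Most of the called genes of the NF-kB pathway rose. NF-kB is a family of transcription factors held in the cytoplasm by inhibitors, and its targets include those same inhibitors, chemokines and survival factors. Of 45 genes on the list, 31 had a gene sum, of which 16 were higher and 2 lower, with a median of 0.77. Of 16 exon-edge sums, 10 were higher and 0 lower, with a median of 1.00 (8 and 0 without composition factors, 7 and 0 with libraries scaled to exon-sharing reads). Many defining members could not be tested. NFKBIA, which encodes the main inhibitor, had 0 and 1 reads in the MPS1i libraries and 0 and 0 in the DMSO libraries, and CXCL1, CXCL2, CXCL3, CCL2, CCL20, IL1B and TNF also had too few reads.

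The promoters of 4 genes that rose are shown because a match to the kappa-B consensus, the sequence that NF-kB binds, lies in each (capitals; both strands were searched, and overlapping matches are merged). They were picked after the values had been seen. Each window runs from 250 bases before to 50 bases after the start of the gene (RefSeq, GRCh38.p14): TNFAIP3 at chr6:137867009-137867308, plus strand, CXCL5 at chr4:73998628-73998927, minus strand, BIRC3 at chr11:102317234-102317533, plus strand, and IL6 at chr7:22726950-22727249, plus strand.
TNFAIP3: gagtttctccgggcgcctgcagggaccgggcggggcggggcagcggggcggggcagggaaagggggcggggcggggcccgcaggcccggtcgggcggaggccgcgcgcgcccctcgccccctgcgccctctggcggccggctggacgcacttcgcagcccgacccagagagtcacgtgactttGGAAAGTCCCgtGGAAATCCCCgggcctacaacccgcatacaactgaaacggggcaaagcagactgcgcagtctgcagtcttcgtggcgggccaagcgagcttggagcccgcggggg
CXCL5: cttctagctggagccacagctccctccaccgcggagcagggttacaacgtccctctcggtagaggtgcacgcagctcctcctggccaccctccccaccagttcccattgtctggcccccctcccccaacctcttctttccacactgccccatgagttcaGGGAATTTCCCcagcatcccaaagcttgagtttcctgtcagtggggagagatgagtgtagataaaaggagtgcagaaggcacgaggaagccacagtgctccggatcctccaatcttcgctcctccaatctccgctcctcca
BIRC3: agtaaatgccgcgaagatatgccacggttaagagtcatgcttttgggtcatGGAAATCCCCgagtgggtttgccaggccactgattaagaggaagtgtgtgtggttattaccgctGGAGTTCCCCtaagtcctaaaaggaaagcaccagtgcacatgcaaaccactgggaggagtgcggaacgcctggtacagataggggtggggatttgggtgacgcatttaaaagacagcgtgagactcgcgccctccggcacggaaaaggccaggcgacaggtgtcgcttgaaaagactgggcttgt
IL6: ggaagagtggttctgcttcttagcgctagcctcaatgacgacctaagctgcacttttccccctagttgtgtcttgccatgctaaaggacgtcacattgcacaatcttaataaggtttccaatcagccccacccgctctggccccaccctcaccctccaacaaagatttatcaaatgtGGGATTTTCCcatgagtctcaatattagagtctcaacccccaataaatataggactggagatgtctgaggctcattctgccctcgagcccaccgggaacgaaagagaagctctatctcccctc
A match was present in 19 of the 38 NF-kB list members with a promoter in the table (50%), and in 1937 of all 27305 symbols of the table (7.09%; 5.91% of its 35116 windows, since a symbol can have several). The list was made of NF-kB regulators and known targets, so this excess follows from the choice of list and says nothing about the pulse. Genes with too few reads to be tested, such as NFKBIA and CXCL1, are among the 19. Such a match is a description of the letters and not evidence of binding in these cells.

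The inhibitors of the pathway rose in 6 of 8 measured gene sums, and the other 2 were not called (4 higher without composition factors). TNFAIP3, the ubiquitin-editing enzyme A20 whose promoter holds a pair of matches, had 7.84 and 5.99 CPM in the MPS1i libraries, against 1.91 and 0.951 CPM in the DMSO libraries, a rise of 2.22 ± 0.45 (adjusted p = 2.13e-05). NFKBIE, an inhibitor of the NFKBIA family, had 5.81 and 5.46 CPM after the pulse and 0.682 and 1.74 CPM after DMSO and rose by 2.23 ± 0.48 (adjusted p = 5.92e-05). TNIP1, a partner of A20, rose by 0.77 ± 0.21 (adjusted p = 0.00146) in its gene sum and by 1.39 ± 0.15 (adjusted p = 9.31e-09) at exon edges, where it had 121 and 109 CPM in the MPS1i libraries, against 44.3 and 43.1 CPM in the DMSO libraries.

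Both measured chemokines rose. CXCL8, a chemoattractant of neutrophils, had 37.2 and 26.6 CPM in the MPS1i libraries, against 4.09 and 3.49 CPM in the DMSO libraries and rose by 3.05 ± 0.27 (adjusted p = 2.6e-19), and its exon-edge sum rose by 1.75 ± 0.30 (adjusted p = 2.83e-05). CXCL5, which acts on the same cells, had 74.1 and 81.9 CPM in the MPS1i libraries, against 27.4 and 25.3 CPM in the DMSO libraries and rose by 1.57 ± 0.14 (adjusted p = 2.16e-18). The gene sum of each chemokine came from 1 region. In both, the lower MPS1i library was well above the higher DMSO library.

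Among cytokines, IL6 had 6.32 and 6.52 CPM in the MPS1i libraries, against 0.545 and 0 CPM in the DMSO libraries at exon edges, a rise of 4.37 ± 0.62 (adjusted p = 1.81e-06) on few reads that was 8.26 without DMSO replicate 1, which again leaves 0 reads in DMSO. TNFSF15, a ligand of the tumour necrosis factor family, had 17.2 and 19.4 CPM in the MPS1i libraries, against 2.04 and 2.06 CPM in the DMSO libraries, a rise of 3.15 ± 0.33 (adjusted p = 7.39e-15), and rose by 1.51 ± 0.34 (adjusted p = 0.00098) at exon edges. IL32 rose by 4.09 ± 0.70 (adjusted p = 4.63e-07), with 4.297 and 6.17 CPM after the pulse and 0.409 and 0.158 CPM after DMSO, and CSF1, which supports macrophages, rose by 1.41 ± 0.32 (adjusted p = 0.000148). These 4 genes were low or near 0 in DMSO and higher in both MPS1i libraries.

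Of 7 other targets with a gene sum, survival genes among them, 4 were higher. BIRC3, an inhibitor of cell death, had 33.4 and 25.5 CPM in the MPS1i libraries, against 5.45 and 7.29 CPM in the DMSO libraries in its gene sum and 63.4 and 66.4 CPM after the pulse and 16.5 and 18.9 CPM after DMSO at exon edges. The rises were 2.2 ± 0.23 (adjusted p = 2.25e-15) and 1.88 ± 0.17 (adjusted p = 2.1e-10). PTGS2, the inducible cyclooxygenase, had 76.1 and 80.2 CPM in the MPS1i libraries, against 22.5 and 23.9 CPM in the DMSO libraries at exon edges, a rise of 1.75 ± 0.16 (adjusted p = 1.5e-10). TRAF1, an adaptor of tumour necrosis factor receptors, rose by 2.21 ± 0.41 (adjusted p = 2.69e-06), and PLAUR, the urokinase receptor, by 1.08 ± 0.17 (adjusted p = 8.25e-08). The only members called lower encode parts of the kinase that frees NF-kB: IKBKB had 41.7 and 41.2 CPM in the MPS1i libraries, against 73.7 and 71.6 CPM in the DMSO libraries, a log2 change of -0.81 ± 0.13 (adjusted p = 1.82e-07), and IKBKG had a log2 change of -0.85 ± 0.20 (adjusted p = 0.000218). IKBKG has a near-identical pseudogene copy, so its value is uncertain.

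Most measured immediate-early genes, which growth factor and stress kinases switch on within minutes, rose. Of 35 listed, 23 had a gene sum, of which 15 were higher and 0 lower, with a median of 0.98 (14 and 1 without composition factors). No gene sum of the list was lower at an unadjusted p under 0.05 in edgeR, and 0 were lower in DESeq2. At exon edges 9 of 11 were higher and 0 lower, with a median of 0.68 (5 and 0 with libraries scaled to exon-sharing reads). FOS, JUN, JUNB, EGR1 and IER3 had too few reads to be tested.

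Among the transcription factors, FOSL1, an AP-1 subunit, had 99.8 and 88.8 CPM in the MPS1i libraries, against 19.2 and 17.1 CPM in the DMSO libraries at exon edges, a rise of 2.37 ± 0.16 (adjusted p = 1.11e-13). KLF6 had 6.83 and 4.76 CPM in the MPS1i libraries, against 0.682 and 0.792 CPM in the DMSO libraries and rose by 2.93 ± 0.56 (adjusted p = 5.48e-06), and the related KLF4 rose by 1.9 ± 0.39 (adjusted p = 1.77e-05). NR4A1, a nuclear receptor, had 18.7 and 17.4 CPM in the MPS1i libraries, against 5.72 and 4.59 CPM in the DMSO libraries, a rise of 1.79 ± 0.26 (adjusted p = 4.25e-09), and rose by 1.19 ± 0.23 (adjusted p = 0.000138) at exon edges.

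Feedback inhibitors of the same kinases rose as well, in 7 of 10 measured gene sums. SPRY4, an inhibitor of receptor tyrosine kinase signalling, had 12.9 and 11.1 CPM in the MPS1i libraries, against 2.18 and 2.06 CPM in the DMSO libraries and rose by 2.48 ± 0.36 (adjusted p = 4.64e-09). DUSP5, a phosphatase of nuclear ERK, had 118 and 102 CPM in the MPS1i libraries, against 42.4 and 40.1 CPM in the DMSO libraries at exon edges and rose there by 1.41 ± 0.15 (adjusted p = 8.45e-09), and its gene sum rose by 1.01 ± 0.15 (adjusted p = 3.7e-09). SPRED1, which dampens Ras signalling, rose by 0.75 ± 0.12 (adjusted p = 2.83e-08) and ERRFI1, an inhibitor of the epidermal growth factor receptor, by 0.98 ± 0.15 (adjusted p = 4.98e-08). PHLDA1 rose by 1.45 ± 0.31 (adjusted p = 0.000561) at exon edges. DUSP1, a phosphatase of stress kinases, had 174 and 185 CPM in the MPS1i libraries, against 126 and 103 CPM in the DMSO libraries at exon edges and rose by 0.65 ± 0.13 (adjusted p = 0.000397), a call that was lost with libraries scaled to exon-sharing reads.

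The cyclic AMP response element TGACGTCA (capitals) stood in the promoters of DUSP1 and of the stress gene PPP1R15A, which are shown for that reason. The windows were defined as above and lie at chr5:172771146-172771445, minus strand, and at chr19:48872171-48872470, plus strand.
DUSP1: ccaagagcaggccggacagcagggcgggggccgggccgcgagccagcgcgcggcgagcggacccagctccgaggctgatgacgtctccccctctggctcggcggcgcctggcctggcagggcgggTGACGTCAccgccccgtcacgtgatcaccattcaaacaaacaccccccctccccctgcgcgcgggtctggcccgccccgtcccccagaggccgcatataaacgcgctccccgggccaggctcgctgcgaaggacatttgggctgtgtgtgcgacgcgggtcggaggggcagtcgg
PPP1R15A: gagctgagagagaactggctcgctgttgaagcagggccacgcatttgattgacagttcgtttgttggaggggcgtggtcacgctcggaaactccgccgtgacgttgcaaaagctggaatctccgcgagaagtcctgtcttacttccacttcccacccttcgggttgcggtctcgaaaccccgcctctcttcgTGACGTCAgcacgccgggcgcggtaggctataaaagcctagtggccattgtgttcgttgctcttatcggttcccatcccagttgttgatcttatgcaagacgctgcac
Among all 27305 symbols 2.25% held this element (1.85% of windows), as did 4 of 28 immediate-early genes (14.3%) and 1 of 27 genes of the integrated stress response (3.7%). These shares were not set against the changes after the pulse.

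**Figure D3:**
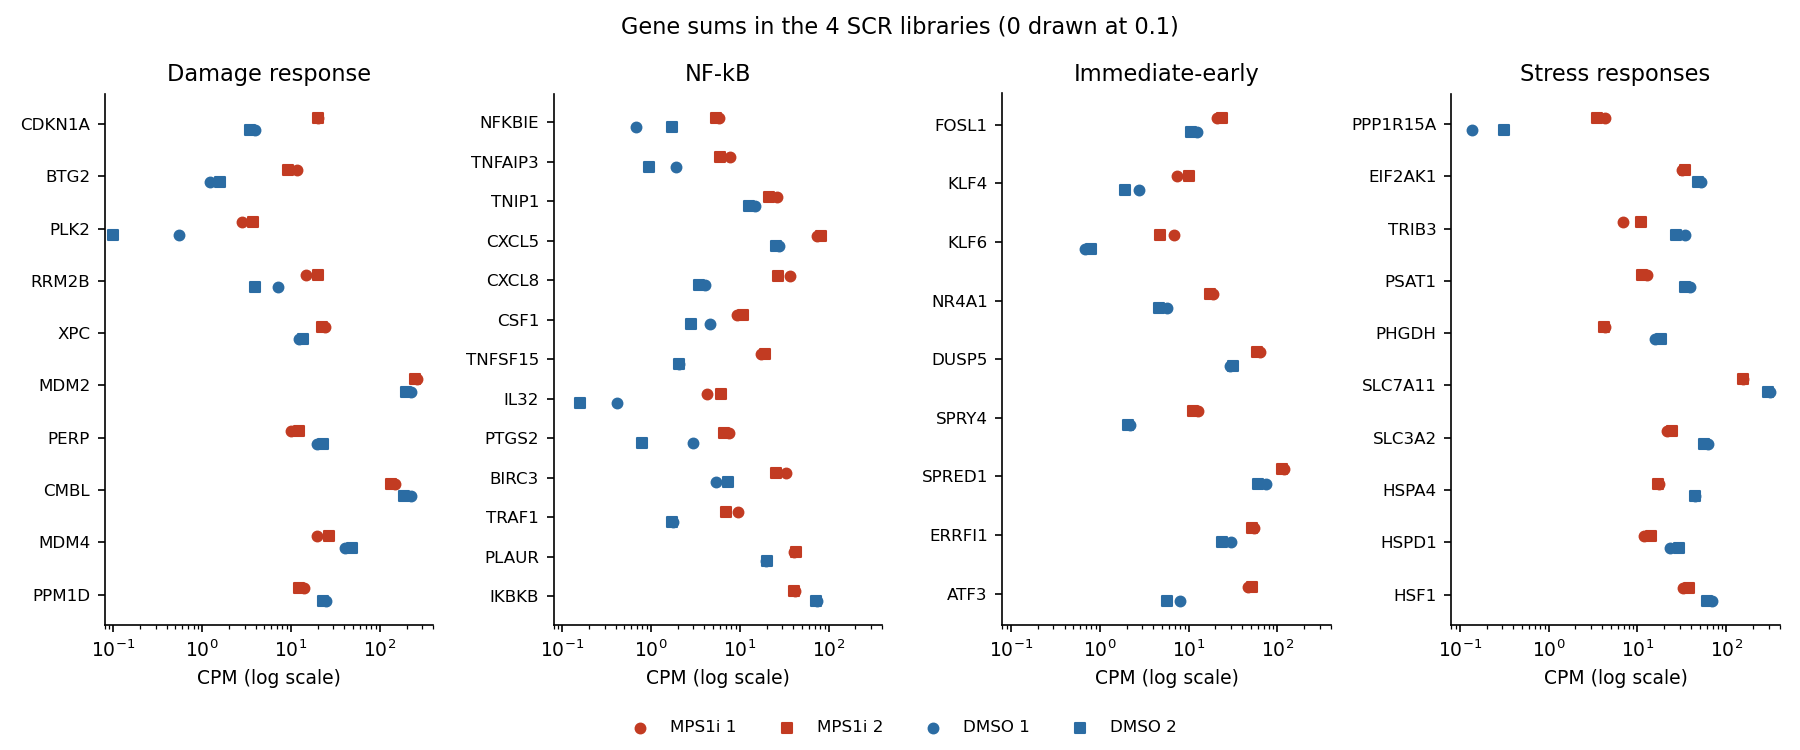
Gene sums (CPM, log scale) of genes named in the text, in both MPS1i libraries (red) and both DMSO libraries (blue) of SCR cells; circles are replicate 1 and squares replicate 2. CDKN1A, CXCL8, SPRY4 and ATF3 are among the genes with all red points to the right of the blue ones, and TRIB3, PSAT1 and PHGDH among those with all red points to the left.

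The integrated stress response had more gene sums lower than higher. In this pathway stress-sensing kinases phosphorylate eIF2 alpha, which lets the factor ATF4 be made and raise amino acid enzymes and transporters. Of 30 genes listed, 20 had a gene sum, of which 5 were higher and 10 lower, with a median of -0.56 (6 and 7 with libraries scaled to intronic reads). By role, 2 of 9 kinases and factors were higher and 4 lower, and 3 of 11 targets were higher and 6 lower. At exon edges 4 of 12 (33.3%) were higher and 0 lower, with a median of 0.18 (0 and 1 with libraries scaled to exon-sharing reads). This lies near the 26.8% higher and 3.12% lower of all exon-edge sums, whose median was 0.37. ATF4 itself was near 0, with 0.506 and 1.23 CPM in the MPS1i libraries, against 1.91 and 0.951 CPM in the DMSO libraries at exon edges (adjusted p = 0.592).

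ATF3, a factor shared by many stress pathways, had 46.01 and 51.98 CPM in the MPS1i libraries, against 7.91 and 5.704 CPM in the DMSO libraries, a rise of 2.84 ± 0.20 (adjusted p = 4.84e-26). PPP1R15A, the GADD34 subunit that removes the phosphate from eIF2 alpha, had 4.297 and 3.52 CPM in the MPS1i libraries, against 0.136 and 0.317 CPM in the DMSO libraries, a rise of 4.02 ± 0.86 (adjusted p = 5.09e-05) from 1 region. TRIB3, a pseudokinase induced by ATF4, was lower, with 6.83 and 10.9 CPM in the MPS1i libraries, against 34.2 and 26.9 CPM in the DMSO libraries and a log2 change of -1.75 ± 0.22 (adjusted p = 1.8e-11). Its exon-edge sum was not called (adjusted p = 0.475).

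The 6 targets with lower gene sums included genes of amino acid supply, whereas of 5 exon-edge sums of targets 1 was higher and 0 were lower. PHGDH, the first enzyme of serine synthesis, had 4.297 and 4.23 CPM in the MPS1i libraries, against 15.9 and 18.4 CPM in the DMSO libraries, and fell by 2.0 ± 0.28 (adjusted p = 1.61e-09). PSAT1, the next enzyme, had 12.9 and 11.1 CPM after the pulse and 38.8 and 34.2 CPM after DMSO and fell by 1.62 ± 0.20 (adjusted p = 2.21e-11). SLC7A11, the cystine transporter, had 154 and 152 CPM in the MPS1i libraries, against 308 and 294 CPM in the DMSO libraries, a log2 change of -0.97 ± 0.10 (adjusted p = 5.13e-16), and its partner chain SLC3A2 fell by 1.35 ± 0.16 (adjusted p = 5.95e-13). The exon-edge sums of SLC7A11 and SLC3A2 were not called (adjusted p = 0.422 and 0.668), and those of PHGDH and PSAT1 were not measured. ASNS, HSPA5 and DDIT4 had no assigned reads in the 4 libraries in either readout, which does not show that their RNA was absent. The chaperone regulator DNAJB9 rose by 0.79 ± 0.18 (adjusted p = 0.00113) at exon edges, a call lost with libraries scaled to exon-sharing reads.

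Chaperones of the heat shock response had 4 gene sums higher and 5 lower of 14. The 35.7% lower is to be read beside 3761 of all 11822 gene sums with a minimum count of 20. At exon edges 6 were higher and 0 lower of 13 (2 and 1 with libraries scaled to exon-sharing reads). DNAJA1, a co-chaperone of HSP70, had 388 and 359 CPM in the MPS1i libraries, against 147 and 158 CPM in the DMSO libraries, a rise of 1.29 ± 0.12 (adjusted p = 2.15e-10) at exon edges. HSPA8, the constitutive HSP70, rose by 1.88 ± 0.54 (adjusted p = 0.00272) in its gene sum. HSPA4 showed opposite calls, with a gene sum of 17.7 and 17.1 CPM in the MPS1i libraries, against 44.6 and 44.7 CPM in the DMSO libraries and an exon-edge sum of 321 and 277 CPM after the pulse and 179 and 176 CPM after DMSO. Its log2 changes were -1.36 ± 0.17 (adjusted p = 1.05e-11) in introns and 0.75 ± 0.12 (adjusted p = 1.27e-05) at exon edges, and 0.51 with both together. HSF1, the factor that induces chaperones, fell by 0.86 ± 0.14 (adjusted p = 1.08e-07), and the mitochondrial chaperonin HSPD1 with a log2 change of -0.99 ± 0.20 (adjusted p = 1.98e-05).

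Targets of NRF2 were abundant, and more of their gene sums were lower than higher. NRF2 (gene NFE2L2) is degraded through KEAP1 unless oxidants intervene, and drives thioredoxin, glutathione and detoxifying enzymes. The summed gene values of the list were 4205 and 4138 CPM in the MPS1i libraries, against 7404 and 6878 CPM in the DMSO libraries. The summed exon-edge values were 32450 and 29529 CPM in the MPS1i libraries, against 26037 and 23490 CPM in the DMSO libraries. Of 33 gene sums 4 were higher and 18 lower, with a median of -0.42, against -0.24 over all genes with both readouts. Of 26 exon-edge sums 10 were higher and 0 lower, with a median of 0.26 (8 and 2 without composition factors, 4 and 5 with libraries scaled to exon-sharing reads).

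Among the gene sums that fell, the smallest p-value was that of ABCC1, an exporter of glutathione conjugates. Its gene sum had 338 and 341 CPM in the MPS1i libraries, against 1021 and 968 CPM in the DMSO libraries, a log2 change of -1.55 ± 0.08 (adjusted p = 9.46e-36). Its exon-edge sum was not called, with 549 and 497 CPM in the MPS1i libraries, against 519 and 474 CPM in the DMSO libraries (adjusted p = 0.648). TXNRD1, thioredoxin reductase, had 828 and 804 CPM in the MPS1i libraries, against 2037 and 1825 CPM in the DMSO libraries, a log2 change of -1.24 ± 0.08 (adjusted p = 1.37e-31), while at exon edges it had 8976 and 8402 CPM after the pulse and 6849 and 6287 CPM after DMSO, a rise of 0.40 ± 0.10 (adjusted p = 0.00179) that was lost with libraries scaled to exon-sharing reads. With exon-sharing regions added to its gene sum the change was 0.16. GSR, glutathione reductase, fell by 1.35 ± 0.12 (adjusted p = 1.69e-18) in its gene sum, and the regulators KEAP1 and NFE2L2 fell, with log2 changes of -1.41 ± 0.21 (adjusted p = 1.55e-08) and -0.65 ± 0.12 (adjusted p = 1.27e-06). PGD and TKT, enzymes of the pentose phosphate pathway, fell, with log2 changes of -1.08 ± 0.16 (adjusted p = 1.49e-08) and -0.79 ± 0.11 (adjusted p = 2.76e-09). PGD was not called at exon edges, with 354 and 331 CPM in the MPS1i libraries, against 305 and 244 CPM in the DMSO libraries (adjusted p = 0.0611), and its change turned to 0.17, not called, with exon-sharing regions added.

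In 4 members both readouts were higher. FTH1, the ferritin heavy chain that stores iron, had 28.6 and 31.9 CPM in the MPS1i libraries, against 6.13 and 5.39 CPM in the DMSO libraries at exon edges and rose there by 2.39 ± 0.26 (adjusted p = 1.49e-08). AKR1B10, an aldo-keto reductase, rose by 0.46 ± 0.11 (adjusted p = 0.000272) in its gene sum and by 0.73 ± 0.12 (adjusted p = 2.3e-05) at exon edges. PRDX1, a peroxiredoxin, rose by 0.64 ± 0.11 (adjusted p = 7e-07) in its gene sum and by 0.60 ± 0.13 (adjusted p = 0.000472) at exon edges. AKR1C1, a related reductase, was among the most abundant exon-edge signals, with 3925 and 3636 CPM in the MPS1i libraries, against 2235 and 1942 CPM in the DMSO libraries, a rise of 0.86 ± 0.11 (adjusted p = 3.44e-07). The ferritin light chain FTL rose by 0.77 ± 0.11 (adjusted p = 4.19e-06), and thioredoxin, TXN, by 0.65 ± 0.16 (adjusted p = 0.00202), at exon edges. The exon-edge calls of PRDX1 and TXN were lost with libraries scaled to exon-sharing reads.

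Enzymes of amino acid metabolism had more gene sums lower than higher. Of 28 gene sums 6 were higher and 13 lower, with a median of -0.38, against -0.24 over all genes with both readouts. Of 19 exon-edge sums 6 (31.6%) were higher and 0 lower, with a median of 0.23. Over all exon-edge sums 26.8% were higher and 3.12% lower, with a median of 0.37, so this count lies near the background. In 3 of the 19 genes with both readouts the gene sum was lower and the exon-edge sum higher, against 377 of 4651 among all genes. CPS1, which makes carbamoyl phosphate in the urea cycle, had 539.9 and 517 CPM in the MPS1i libraries, against 876 and 822 CPM in the DMSO libraries in its gene sum and 3558 and 3254 CPM after the pulse and 2483 and 2399 CPM after DMSO at exon edges. It fell by 0.68 ± 0.08 (adjusted p = 1.49e-12) in introns and rose by 0.48 ± 0.10 (adjusted p = 0.000424) at exon edges, a call lost with libraries scaled to exon-sharing reads, and the 2 together gave 0.26. ASS1, which joins citrulline to aspartate, had 243 and 214 CPM in the MPS1i libraries, against 594 and 546 CPM in the DMSO libraries, a log2 change of -1.32 ± 0.09 (adjusted p = 1.21e-27), and was not called at exon edges, with 1093 and 1004 CPM in the MPS1i libraries, against 1018 and 841 CPM in the DMSO libraries (adjusted p = 0.273). HPD, a tyrosine-degrading enzyme, fell by 1.32 ± 0.14 (adjusted p = 4.05e-15) in introns and rose by 0.49 ± 0.13 (adjusted p = 0.00364) at exon edges, a call lost in the same way, and the 2 together gave 0.29.

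Enzymes of arginine, ornithine and glutamine metabolism were among the rises. ARG2, mitochondrial arginase, had 6.07 and 7.93 CPM in the MPS1i libraries, against 2.18 and 1.901 CPM in the DMSO libraries and rose by 1.78 ± 0.42 (adjusted p = 0.000209). OAT, which turns ornithine toward glutamate, had 10.6 and 11.3 CPM after the pulse and 4.63 and 3.17 CPM after DMSO and rose by 1.47 ± 0.32 (adjusted p = 5.83e-05). GLUL, glutamine synthetase, rose by 0.95 ± 0.19 (adjusted p = 0.000313) at exon edges. Of 10 gene sums of serine and one-carbon enzymes 6 were lower and 1 higher, MTHFD1 lower with a log2 change of -1.1 ± 0.21 (adjusted p = 3.51e-06) and MTHFD1L with a log2 change of -0.81 ± 0.10 (adjusted p = 6.94e-11), as did BCAT1, which degrades branched-chain amino acids, with a log2 change of -0.99 ± 0.19 (adjusted p = 3.73e-06).

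In glycolysis 2 gene sums were higher and 3 lower of 20 (2 and 5 without composition factors, 5 and 2 with libraries scaled to intronic reads), and 6 of 12 exon-edge sums were higher with 0 lower. TPI1, triosephosphate isomerase, rose in both readouts, by 1.19 ± 0.20 (adjusted p = 3.71e-07) and by 1.48 ± 0.30 (adjusted p = 0.00036) at exon edges. PKM, pyruvate kinase, had 447 and 401 CPM in the MPS1i libraries, against 242 and 198 CPM in the DMSO libraries at exon edges, a rise of 0.95 ± 0.12 (adjusted p = 4.84e-07). The liver-type phosphofructokinase gene PFKL fell by 1.23 ± 0.32 (adjusted p = 0.000704) in its gene sum. It was not called at exon edges, with 41.2 and 43.9 CPM in the MPS1i libraries, against 38.2 and 25.03 CPM in the DMSO libraries (adjusted p = 0.0709), and its change was 0.17, not called, with exon-sharing regions added.

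Genes of lipid synthesis had more gene sums lower than higher. Of 27 gene sums 4 were higher and 13 lower (2 and 14 without composition factors, 7 and 9 with libraries scaled to intronic reads). Their median was -0.41, against -0.24 over all genes with both readouts. In the sterol pathway 4 were higher and 5 lower of 14, and 5 of 6 genes of regulation and uptake and 3 of 7 genes of fatty acids were lower. Of 23 exon-edge sums 5 were higher and 3 lower (3 and 5 without composition factors, 2 and 7 with libraries scaled to exon-sharing reads). HMGCS1, which makes the substrate of HMG-CoA reductase, had 131 and 140.2 CPM in the MPS1i libraries, against 73.3 and 76.4 CPM in the DMSO libraries, a rise of 0.86 ± 0.11 (adjusted p = 1.09e-10), and at exon edges 1824 and 1593 CPM after the pulse and 890.2 and 762 CPM after DMSO, a rise of 1.05 ± 0.11 (adjusted p = 3.42e-09). IDI1, an isomerase further along the pathway, rose by 1.32 ± 0.25 (adjusted p = 4.92e-06). ACACA, which commits carbon to fatty acids, had 145 and 138 CPM in the MPS1i libraries, against 375 and 365 CPM in the DMSO libraries, a log2 change of -1.39 ± 0.10 (adjusted p = 8.59e-27). The sterol-sensing factors SREBF1 and SREBF2 fell, with log2 changes of -1.11 ± 0.20 (adjusted p = 9.8e-07) and -0.96 ± 0.10 (adjusted p = 3.46e-14).

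Nucleotide synthesis had 1 gene sum higher and 6 lower of 16 (2 and 6 with libraries scaled to intronic reads). The 37.5% lower is to be read beside 3761 of all 11822 gene sums with a minimum count of 20. At exon edges 2 were higher and 0 lower of 11 (0 and 1 with libraries scaled to exon-sharing reads). CAD, which starts pyrimidine synthesis, had 3.03 and 4.93 CPM in the MPS1i libraries, against 11.7 and 13.8 CPM in the DMSO libraries, a log2 change of -1.63 ± 0.30 (adjusted p = 2.91e-06). GART and ATIC, enzymes of purine synthesis, fell, with log2 changes of -1.22 ± 0.15 (adjusted p = 2.9e-11) and -1.34 ± 0.20 (adjusted p = 4.7e-09), and RRM1, the large subunit of ribonucleotide reductase, with a log2 change of -1.0 ± 0.23 (adjusted p = 0.000211).

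**Figure D4:**
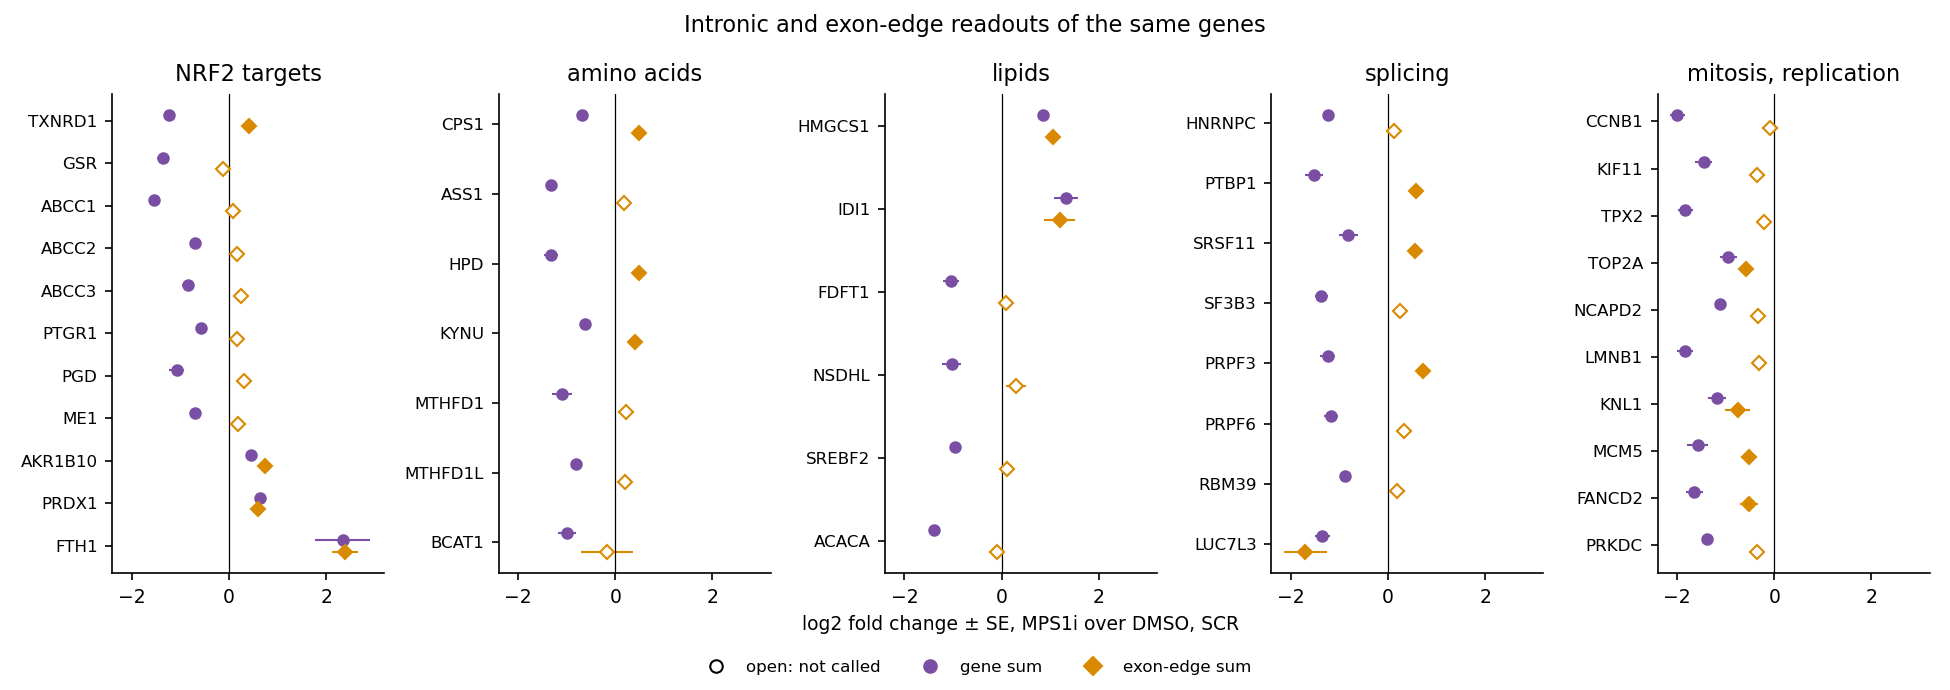
Log2 fold change ± standard error (MPS1i over DMSO, SCR cells) of the gene sum (purple circles) and the exon-edge sum (orange diamonds) of 42 genes in 5 groups; open symbols were not called. In most of these genes the circle lies to the left of the diamond, as for ABCC1 at -1.55 in its gene sum, while HMGCS1, IDI1, PRDX1, AKR1B10 and FTH1 lie to the right in both.

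Genes of the splicing machinery had the widest gap between the medians of the readouts among the 14 lists plotted. Splicing removes introns, from which many cellular duplexes come, and its factors bind introns as well as each other's transcripts. Of 93 genes listed, 79 had a gene sum, of which 6 were higher and 43 lower, with a median of -0.60. Of 53 exon-edge sums 21 were higher and 2 lower, with a median of 0.29 (6 and 3 without composition factors, 3 and 5 with libraries scaled to exon-sharing reads). Over all 4651 genes with both readouts the medians were -0.24 and 0.36, so a gap in this direction was general. In 14 of the 49 splicing genes with both readouts, the gene sum was lower and the exon-edge sum higher, against 377 of 4651 among all genes.

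The core spliceosome had 17 of 24 gene sums lower (20 without composition factors) and the rest not called, and the hnRNP family 12 of 21 lower and 1 higher. Exon edges went the other way, with 6 higher and 1 lower of 18 in the core and 7 higher and 0 lower of 12 hnRNPs. With libraries scaled to exon-sharing reads these counts were 1 and 2 in the core and 0 and 0 for hnRNPs. The falls below are of gene sums. HNRNPC, which coats introns and keeps splice sites in inverted repeats from use, had 93.02 and 97.3 CPM in the MPS1i libraries, against 234 and 213 CPM in the DMSO libraries, a log2 change of -1.23 ± 0.11 (adjusted p = 7.58e-20). SF3B3, a part of the branch point complex, had 36.9 and 32.6 CPM in the MPS1i libraries, against 89.6 and 89.04 CPM in the DMSO libraries, a log2 change of -1.37 ± 0.13 (adjusted p = 1.25e-16). LUC7L, a U1 snRNP component, fell by 1.63 ± 0.17 (adjusted p = 1.69e-14) with 14.2 and 16.03 CPM after the pulse and 45.5 and 48.5 CPM after DMSO. PRPF3, of the tri-snRNP, fell by 1.24 ± 0.16 (adjusted p = 1.73e-11) in introns and rose by 0.73 ± 0.15 (adjusted p = 0.000291) at exon edges, where it had 70.3 and 64.1 CPM in the MPS1i libraries, against 40.1 and 40.9 CPM in the DMSO libraries. The regulators RBM6 and RBM39 fell, with log2 changes of -1.1 ± 0.11 (adjusted p = 2.66e-15) and -0.89 ± 0.11 (adjusted p = 5.72e-12).

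PTBP1, a repressor of exons, fell by 1.52 ± 0.18 (adjusted p = 2.5e-12) in its gene sum, of which 85.2% came from 1 region. At exon edges it rose by 0.57 ± 0.15 (adjusted p = 0.0033), with 102 and 96.2 CPM in the MPS1i libraries, against 76.6 and 56.6 CPM in the DMSO libraries, a call lost without DMSO replicate 2 (0.39) and with libraries scaled to exon-sharing reads (0.24), and with exon-sharing regions added to the gene sum its change was 0.087 and not called. The members with higher gene sums included HNRNPA2B1, with 27.05 and 21.8 CPM in the MPS1i libraries, against 12.7 and 9.82 CPM in the DMSO libraries and a rise of 1.1 ± 0.21 (adjusted p = 6.91e-06), and the kinase CLK3, which phosphorylates SR proteins and rose by 0.94 ± 0.21 (adjusted p = 0.000103). SRSF7, an SR protein, rose by 1.18 ± 0.38 (adjusted p = 0.00682). Gene sums of this list are themselves mostly intronic reads. Intronic reads as a whole took 28.0% and 27.8% of the MPS1i libraries and 37.8% and 35.6% of the DMSO libraries. The part of this shift in the lower gene sums of the list was not tested.

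Most measured mitotic genes had lower gene sums. TTK, the target of the inhibitor, was not called in either readout, with a gene sum of 5.81 and 4.05 CPM in the MPS1i libraries, against 4.77 and 8.56 CPM in the DMSO libraries (adjusted p = 0.304) and an exon-edge sum of 13.9 and 10.4 CPM after the pulse and 15.7 and 13.8 CPM after DMSO (adjusted p = 0.335). Of 47 gene sums 1 was higher and 28 lower, with a median of -0.77. Of 37 exon-edge sums 0 were higher and 3 lower, with a median of -0.21, against a median of 0.37 over all exon-edge sums. At an unadjusted p under 0.05 in edgeR 1 was higher, and DESeq2 called 0 higher. With libraries scaled to exon-sharing reads 16 were lower and 0 higher, and without composition factors 12 were lower and 0 higher.

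CCNB1, the cyclin that drives entry into mitosis, had 20.98 and 16.6 CPM in the MPS1i libraries, against 76.1 and 71.8 CPM in the DMSO libraries, a log2 change of -2.0 ± 0.16 (adjusted p = 1.75e-22), and 91.1% of the sum came from 1 region. TPX2, which builds the spindle, had 22.2 and 16.6 CPM in the MPS1i libraries, against 68.97 and 66.5 CPM in the DMSO libraries, a log2 change of -1.83 ± 0.16 (adjusted p = 2.32e-20). LMNB1, of the nuclear lamina, had 15.4 and 17.4 CPM in the MPS1i libraries, against 59.98 and 57.7 CPM in the DMSO libraries, a log2 change of -1.83 ± 0.16 (adjusted p = 6.95e-19). The spindle motors KIF11 and KIF4A fell, with log2 changes of -1.45 ± 0.17 (adjusted p = 2.54e-12) and -1.42 ± 0.14 (adjusted p = 7.41e-16), and the checkpoint genes BUB1B and MAD1L1 had log2 changes of -1.02 ± 0.16 (adjusted p = 8.87e-08) and -1.02 ± 0.16 (adjusted p = 4.76e-08). TOP2A, which untangles chromosomes, was lower in both readouts, with log2 changes of -0.94 ± 0.18 (adjusted p = 4.19e-06) in its gene sum and -0.59 ± 0.12 (adjusted p = 0.000359) at exon edges, where it had 226 and 208 CPM in the MPS1i libraries, against 346 and 308 CPM in the DMSO libraries.

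Genes of DNA replication and repair had 3 gene sums higher and 16 lower of 31, with a median of -0.54 (5 and 13 with libraries scaled to intronic reads). At exon edges 2 were higher and 3 lower of 23 (1 and 5 without composition factors, 0 and 6 with libraries scaled to exon-sharing reads). FANCA, of the Fanconi anaemia core complex, had 36.4 and 36.3 CPM in the MPS1i libraries, against 128 and 113 CPM in the DMSO libraries, a log2 change of -1.73 ± 0.13 (adjusted p = 8.79e-25). PRKDC, the kinase of end joining, had 132 and 116 CPM in the MPS1i libraries, against 334 and 315 CPM in the DMSO libraries, a log2 change of -1.39 ± 0.10 (adjusted p = 4.44e-26). MCM5, of the replicative helicase, fell by 1.58 ± 0.22 (adjusted p = 1.14e-09), and its exon-edge log2 change of -0.52 ± 0.17 (adjusted p = 0.0202) was lost without DMSO replicate 1 or MPS1i replicate 2. CCNE2, a cyclin of S phase entry, had 9.1 and 9.51 CPM in the MPS1i libraries, against 3.41 and 2.06 CPM in the DMSO libraries and rose by 1.75 ± 0.36 (adjusted p = 2.82e-05). NBN, which senses double-strand breaks, rose by 0.75 ± 0.15 (adjusted p = 1.88e-05).

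Targets of YAP and TGF-beta gave no common direction, with 4 gene sums higher and 4 lower of 18 (2 and 6 without composition factors, 6 and 4 with libraries scaled to intronic reads). AMOTL2, a YAP target and partner, had 126 and 121 CPM in the MPS1i libraries, against 62.4 and 53.1 CPM in the DMSO libraries at exon edges, a rise of 1.09 ± 0.13 (adjusted p = 1.57e-07). The factor TEAD1 fell by 0.81 ± 0.11 (adjusted p = 1.1e-10) and the kinase LATS1 with a log2 change of -0.61 ± 0.12 (adjusted p = 8.62e-06). CCN1 and CCN2, the usual reporters of YAP, were measured in neither readout.

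Outside the lists and away from interferon genes, SDCBP had the smallest p-value among rises. SDCBP (chr8:58552924-58582860, plus strand) encodes the adaptor syntenin. It had 128 and 116 CPM in the MPS1i libraries, against 21.9 and 17.4 CPM in the DMSO libraries in its gene sum, a rise of 2.62 ± 0.15 (adjusted p = 5.92e-35), and rose by 2.12 ± 0.33 (adjusted p = 9.33e-06) at exon edges. POLR2A, the large subunit of RNA polymerase II, had 189 and 175 CPM in the MPS1i libraries, against 54.8 and 64.6 CPM in the DMSO libraries and rose by 1.61 ± 0.12 (adjusted p = 1.57e-25), with 57.5% of the sum in 1 region. NCALD, a neuronal calcium sensor, rose by 2.36 ± 0.18 (adjusted p = 2.29e-23) over 312 regions, and ARHGAP15, a Rac regulator, by 2.49 ± 0.22 (adjusted p = 8.76e-20) over 253.

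The rises with the smallest p-values included 3 long noncoding RNAs. PINCR (chrX:43176994-43226598, plus strand) had 25.5 and 29.1 CPM in the MPS1i libraries, against 2.18 and 2.69 CPM in the DMSO libraries, a rise of 3.49 ± 0.27 (adjusted p = 1.2e-22). LINC01285 had 24.8 and 28.5 CPM in the MPS1i libraries, against 1.23 and 1.11 CPM in the DMSO libraries and rose by 4.49 ± 0.32 (adjusted p = 1.65e-25). LINC02267 had 19.97 and 21.7 CPM after the pulse and 1.36 and 0.951 CPM after DMSO and rose by 4.13 ± 0.34 (adjusted p = 5.63e-21). All 3 were near the bottom of the measured range in DMSO libraries and well above it in MPS1i libraries. ZNF275, a zinc finger gene, rose by 3.43 ± 0.29 (adjusted p = 1.07e-20), and PATL1, of mRNA decay bodies, by 1.98 ± 0.17 (adjusted p = 1.56e-20).

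Outside the lists, the falls with the smallest p-values were those of ENSA and a pair of pseudogene transcripts. ENSA, an inhibitor of the phosphatase that opposes mitotic kinases, had 90.5 and 82.1 CPM in the MPS1i libraries, against 308 and 298 CPM in the DMSO libraries, a log2 change of -1.82 ± 0.11 (adjusted p = 4.85e-33), of which 1 region gave 93.3% of reads, and it fell by 0.89 ± 0.18 (adjusted p = 0.000337) at exon edges. DUXAP10 had 262 and 259.5 CPM in the MPS1i libraries, against 756 and 739.9 CPM in the DMSO libraries and fell by 1.52 ± 0.09 (adjusted p = 5.64e-33), and the near-identical copy DUXAP8 fell by 1.4 ± 0.09 (adjusted p = 3.61e-29). The sources used here do not say how reads matching both copies were assigned, so their values are uncertain as separate genes. PUM3, an RNA-binding protein of the nucleolus, had 549 and 525 CPM in the MPS1i libraries, against 1415 and 1122 CPM in the DMSO libraries, a log2 change of -1.24 ± 0.08 (adjusted p = 1.68e-27). STAG1, a cohesin subunit, fell by 1.49 ± 0.11 (adjusted p = 1.8e-25) over 657 regions. DUXAP10, DUXAP8 and PUM3 fell at exon edges too, with log2 changes of -1.16 ± 0.14 (adjusted p = 7.56e-08), -0.95 ± 0.14 (adjusted p = 5.87e-06) and -1.61 ± 0.36 (adjusted p = 0.000961), so that they and ENSA were among the 100 genes lower in both readouts.

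Retroviral loci were called higher more often than lower. Long terminal repeats (LTRs) are the promoters and ends that endogenous retroviruses left in the genome, and some still start or end transcripts. Only loci outside genes on their strand were considered, so that the reads could not be intronic. Of 69358 such LTR regions with reads, 653 could be tested, of which 103 were higher and 19 lower, with a median of 0.42. Among all 27707 antisense and intergenic regions, 4207 (15.2%) were higher and 718 (2.59%) lower, with a median of 0.35. The share of LTR loci called higher was thus near this background. Without composition factors 85 were higher and 33 lower. With a minimum count of 20 there were 54 and 28, with a median of 0.24. Leaving out DMSO replicate 1, DMSO replicate 2, MPS1i replicate 1 or MPS1i replicate 2 left 64, 78, 76 and 66 loci called in all, against 122 with every library.

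Differences between subfamilies were not tested. The sources used here do not say how reads matching several copies of a repeat were assigned, so values of single loci and counts of loci are uncertain. Of 19 LTR12C loci, the LTR of the HERV9 group, 10 were higher and the other 9 not called, with a median of 1.86, and 9 of 21 MLT1B and 8 of 26 MLT1C loci were higher. The other subfamilies with 15 or more tested loci had fewer, with 4 higher of 25 MLT1D, 3 of 21 MLT1J, 1 of 18 MLT1A0 and 1 of 17 MLT1K loci, and 4 of 20 loci from the body of HERVH. Of 7 MER41B loci, a subfamily known to carry interferon-responsive sites, 1 was lower, a call lost without DMSO replicate 1 or MPS1i replicate 2, and the rest were not called. By class, 45 of 233 ERV1, 3 of 29 ERVK, 15 of 107 ERVL and 39 of 260 ERVL-MaLR loci were higher.

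Named loci are given in hg38 coordinates and have no listed interferon-stimulated gene within 20 kb. An LTR12C element between genes on chromosome X (chrX:119209192-119209597, minus strand) had 10.4 and 8.28 CPM in the MPS1i libraries, against 0.273 and 1.11 CPM in the DMSO libraries, a rise of 3.76 ± 0.48 (adjusted p = 5.01e-09). A second one on chromosome 4 (chr4:62490298-62491107, minus strand) had 2.53 and 5.11 CPM in the MPS1i libraries, against 0.136 and 0.158 CPM in the DMSO libraries, a rise of 4.56 ± 0.84 (adjusted p = 3.19e-05). Another one, on chromosome 5 (chr5:30346551-30347290, plus strand), had 2.53 and 4.405 CPM in the MPS1i libraries, against 0.273 and 0 CPM in the DMSO libraries, a rise of 4.42 ± 0.84 (adjusted p = 5.82e-05). The log2 change of the last was 7.41 without DMSO replicate 1. These 3 were near 0 in DMSO libraries, with 2 and 7, 1 and 1, and 2 and 0 reads in the order given. They kept their calls under every alternative tried, whereas the other 7 higher LTR12C loci lost theirs under at least 1. No alternative changed how reads with several matches were assigned. An internal HERVH sequence on chromosome 4 (chr4:92028365-92030556, plus strand) had 13.9 and 10.7 CPM in the MPS1i libraries, against 4.23 and 3.17 CPM in the DMSO libraries, a rise of 1.71 ± 0.33 (adjusted p = 6.06e-05).

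Some of the loci lay just past the end of a gene on the same strand. Among loci with no listed interferon-stimulated gene within 20 kb, the rise with the smallest p-value was an MLT1B element on chromosome 6 (chr6:26113868-26114393, minus strand), 480 bp past the histone gene H2BC4, with 28.3 and 32.6 CPM in the MPS1i libraries, against 6.54 and 6.65 CPM in the DMSO libraries, a rise of 2.21 ± 0.24 (adjusted p = 1.63e-11). An MER34 element 1461 bp past HIST1H3B, another histone gene, had 8.85 and 8.99 CPM in the MPS1i libraries, against 2.32 and 1.74 CPM in the DMSO libraries, a rise of 2.11 ± 0.40 (adjusted p = 4.99e-05). An MER57F element (chr6:29552612-29553182, minus strand) 2333 bp past UBD, a ubiquitin-like gene known to be induced by inflammatory cytokines, had 8.85 and 8.28 CPM in the MPS1i libraries, against 0.954 and 0.634 CPM in the DMSO libraries, a rise of 3.38 ± 0.46 (adjusted p = 2.47e-08). A gene of the same strand ended within 10000 bp upstream of 50 of the 103 higher loci and of 280 of the 653 tested loci, and 21 of the 103 lay antisense to a gene.

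Falls were fewer. An LTR27C element on chromosome 4 (chr4:37866274-37868154, plus strand), 3337 bp past PGM2, had 4.803 and 4.405 CPM in the MPS1i libraries, against 24.9 and 17.3 CPM in the DMSO libraries, a log2 change of -2.2 ± 0.29 (adjusted p = 8.31e-09). An MSTA element on chromosome 13 (chr13:82883081-82883653, minus strand) had 0.506 and 0.529 CPM in the MPS1i libraries, against 3.27 and 4.91 CPM in the DMSO libraries, a log2 change of -2.92 ± 0.66 (adjusted p = 0.000715). An LTR82A element, 9 bp past RAD1, fell by 1.16 ± 0.28 (adjusted p = 0.00178), a call that was lost without MPS1i replicate 2.

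**Figure D5:**
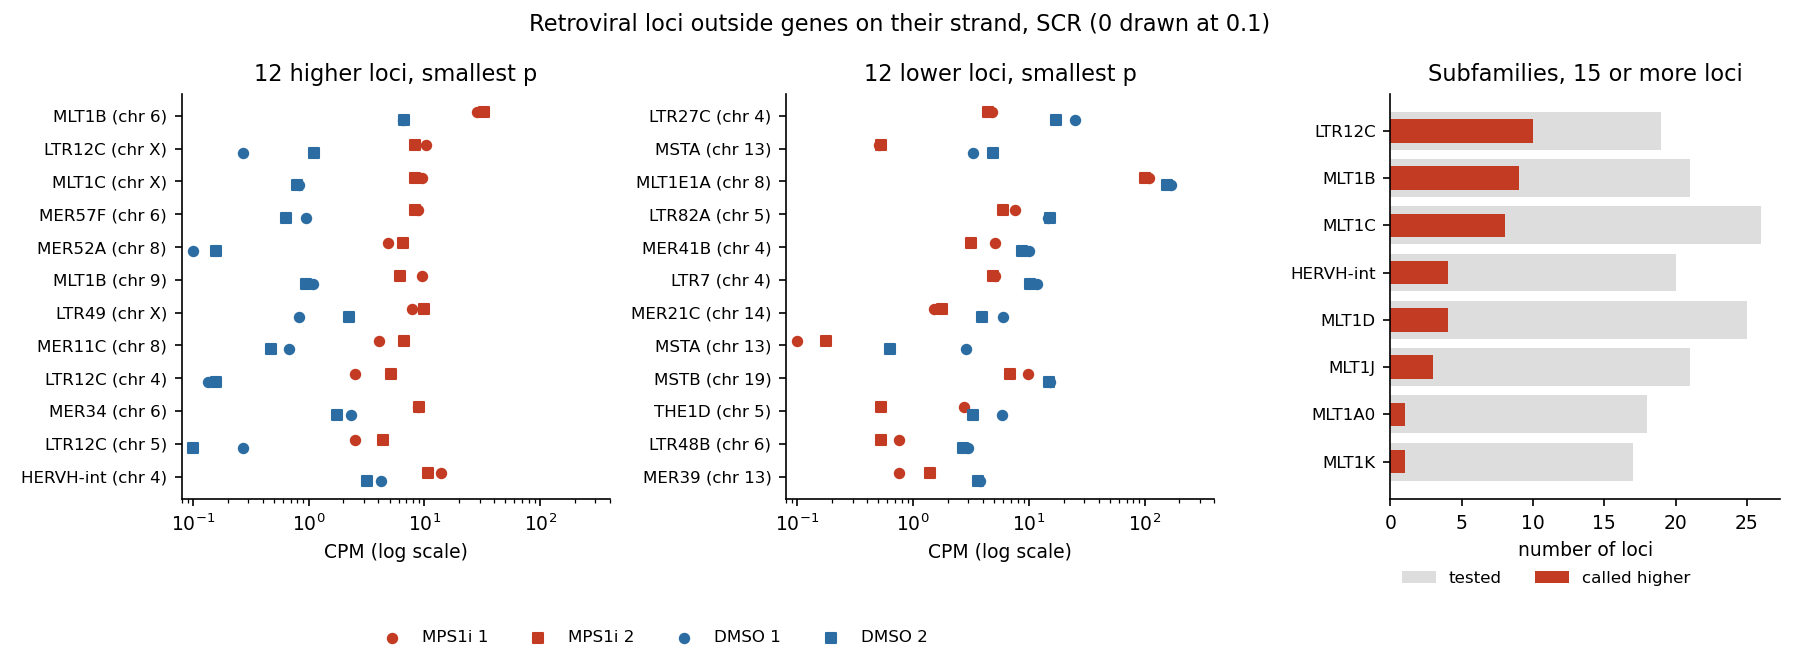
Left and centre, CPM (log scale) of the 12 higher and 12 lower retroviral loci with the smallest p-values among those with no listed interferon-stimulated gene within 20 kb, in MPS1i (red) and DMSO (blue) libraries of SCR cells. Right, tested loci (grey) and loci called higher (red) in subfamilies with 15 or more tested loci, led by LTR12C with 10 of 19.

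The pulse was also given to IFNAR1sg cells, labelled as lacking a receptor subunit for type I interferon, and the change in SCR cells minus that in IFNAR1sg cells was tested gene by gene. The exon-edge sum of IFNAR1 itself ran between 1.34 and 2.73 CPM in the 6 IFNAR1sg libraries and between 7.08 and 9.54 CPM in the 6 SCR libraries. Its gene sum overlapped, between 2.92 and 4.37 CPM in IFNAR1sg libraries and between 0 and 6.57 CPM in SCR libraries. Among all gene sums 48 (0.335%) had a more positive and 157 (1.09%) a more negative change in SCR cells (122 and 105 with exon-sharing regions added to the sums). None of the 205 was on the damage response, NF-kB, immediate-early, integrated stress, heat shock, amino acid, glycolysis, lipid, nucleotide or mitosis lists. At an unadjusted p under 0.05 these lists had up to 6 members in a direction, reached by immediate-early genes (more positive in SCR) and mitotic genes (more negative), and DESeq2 called 0. Of 18 YAP and TGF-beta gene sums 3 were more negative in SCR cells, all among the 10 TGF-beta targets. Splicing had 1 call in each direction and DNA replication and repair 1 more negative. NRF2 targets and lung epithelial markers each had 1 more positive. Among interferon-stimulated genes 33 of 130 were more positive in SCR cells. The 205 calls became 125 without IFNAR1sg MPS1i replicate 1, 126 without SCR MPS1i replicate 2 and 138 without IFNAR1sg DMSO replicate 2. The log2 change of CDKN1A was 2.42 in SCR and 2.35 in IFNAR1sg cells, and that of CXCL8 was 3.05 and 2.18, in the same order. That of ATF3 was 2.84 in SCR and 2.18 in IFNAR1sg cells. That of ABCC1 was -1.55 and -1.54, and that of CCNB1 -2.0 and -1.78, again with SCR first. The differences were 0.07 ± 0.39 (adjusted p = 0.979), 0.86 ± 0.42 (adjusted p = 0.452), 0.66 ± 0.29 (adjusted p = 0.352), -0.01 ± 0.12 (adjusted p = 0.994) and -0.22 ± 0.22 (adjusted p = 0.818), and a difference that was not called is not shown to be absent.

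Named genes with a called difference were few. KRT18, a keratin, had 40.95 and 35.6 CPM in SCR MPS1i and 22.1 and 19.2 CPM in IFNAR1sg MPS1i libraries, and its change differed by 1.29 ± 0.24 (adjusted p = 0.000115). ENSA fell further in SCR than in IFNAR1sg cells, by a difference of -0.72 ± 0.15 (adjusted p = 0.000512), a call that was lost without IFNAR1sg DMSO replicate 1 (log2 difference range -0.84 to -0.59 over the alternatives). The call of KRT18 was kept under all 21 alternatives. Intronic reads took 32.8% and 31.0% of the IFNAR1sg MPS1i libraries and 38.2% and 38.6% of the IFNAR1sg DMSO libraries, and the part of this in these differences was not tested.

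Set against IFNb rather than DMSO, the pulse in SCR cells gave higher values for 5261 gene sums (36.7%) and lower values for 497 (3.46%), with a median of 0.60 (4314 and 1684 with exon-sharing regions added to the sums). Intronic reads took 19.4% and 19.6% of the SCR IFNb libraries, and the part of this in any list was not tested. Of 29 damage response gene sums 24 were higher than with IFNb and 0 lower, with a median of 1.35. Of 31 NF-kB gene sums 16 were higher and 0 lower, with a median of 0.99, and of 23 immediate-early gene sums 15 were higher and 0 lower, with a median of 1.25. At an unadjusted p under 0.05 in edgeR 1 NF-kB gene and 0 genes of the damage response and immediate-early lists were lower, and DESeq2 called 0. Interferon-stimulated genes had 22 higher and 41 lower of 130.

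Genes differed in this respect. PINCR had 25.5 and 29.1 CPM after the pulse and 1.22 and 0.923 CPM with IFNb, a difference of 4.65 ± 0.38 (adjusted p = 1.01e-20). SDCBP had 128 and 116 CPM after the pulse and 21.6 and 15.7 CPM with IFNb, a difference of 2.71 ± 0.17 (adjusted p = 1.91e-30). BTG2 and TNFSF15 were higher after the pulse by 2.75 ± 0.48 (adjusted p = 1.21e-06) and 3.19 ± 0.39 (adjusted p = 2e-11). CXCL5 had 74.1 and 81.9 CPM after the pulse and 74.6 and 86.1 CPM with IFNb, and was not called (adjusted p = 0.839). PATL1 was lower after the pulse, at 57.9 and 48.6 CPM, than with IFNb, at 146 and 134 CPM, a difference of -1.41 ± 0.14 (adjusted p = 1.74e-15).

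Markers were read to check the labelled cell type. Among lung epithelial markers KRT8 had 3113 and 2789 CPM in the MPS1i libraries, against 1746 and 1642 CPM in the DMSO libraries at exon edges, a rise of 0.80 ± 0.11 (adjusted p = 1.42e-06). NKX2-1 and KRT19 had no assigned reads in the 4 libraries. The summed gene values of the 11 epithelial markers were 132 and 129 CPM in MPS1i libraries and 98.01 and 81.4 CPM in DMSO libraries. Those of the 11 fibroblast markers were 21.99 and 21.8 CPM in MPS1i libraries and 3.68 and 2.38 CPM in DMSO libraries, led by FAP with 13.9 and 15.2 CPM after the pulse and 1.499 and 0.792 CPM after DMSO. Of these markers COL1A1, COL1A2, PDGFRA and THY1 had no assigned reads. The 12 immune markers summed to 7.58 and 5.64 CPM in MPS1i libraries and 1.36 and 1.43 CPM in DMSO libraries, and CD3D, MS4A1 and NKG7 were among those at 0 reads. Since regions inside more than 1 gene were left out, a marker without assigned reads is not shown to be absent. The part of these markers in the changes above was not tested.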

How the data were processed

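RNA bound by the J2 antibody was sequenced from 12 libraries in 6 groups of 2, with a stranded total RNA kit, per the labels' protocols. The deposited values are whole-number counts of reads per annotated region, mostly repeats. The aligner STAR, the counter featureCounts, the trimmers cutadapt, Trim Galore and Trimmomatic, and HOMER, with the builds GRCh38 and hg38, are named in the submitters' processing notes; versions, counting settings and the handling of reads with several matches are not given in the sources used here. Of the 5254113 regions, 46.1% had 0 reads in all libraries. All columns were assigned to a sample (0 were left out), and library totals ran between 3739443 and 7430687 reads, which sets the counting error. There are no molecular identifiers, so read counts are not counts of independent molecules.

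Regions were placed on GENCODE v29 gene models by strand. A gene sum adds the regions inside a gene and on its strand that share no exon base, an exon-edge sum those that share at least 1, and regions inside more than 1 gene were left out. Of 58735 gene IDs, 58207 matched a symbol. Counts were tested in R 4.3.3 with edgeR 4.0.16 (TMM factors, filterByExpr with a minimum count of 10, a minimum total of 15 and a minimum proportion of 0.7, estimateDisp, glmQLFit, glmQLFTest). All 12 libraries were fitted with 1 coefficient per group, leaving 6 residual degrees of freedom. The variance was drawn toward a trend shared by all features, with prior degrees of freedom of 133.7 for gene sums, 27.5 for exon-edge sums and 72.9 for regions. Standard errors are the absolute log2 change divided by the square root of F. The p-values were adjusted by Benjamini-Hochberg over all features of a readout, with calls at 0.05. Alternatives were DESeq2 1.42.0, its size factors, no TMM factors, other count filters, fewer groups, each library left out, the replicate number as a block, other sets of regions, and, chosen after seeing the data, libraries scaled to their intronic or exon-sharing reads. On simulated counts with the design of the gene sums (13455 genes), 100% of 50 genes raised 4-fold and 42% of 50 raised 2-fold were called. So were 70% of 50 lowered to 0.25 and 30% of 50 lowered to 0.5 of their level, and 0.0604% of 13255 unchanged genes. The simulation used 1 dispersion for all genes, above the common dispersion of 0.0099 fitted to the gene sums. Few genes changed in it, without a shift between region classes, so these shares do not carry over to the data.

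The gene lists and the questions were chosen with earlier results of these data known. Named genes are up to 4 per list role and direction with the smallest p-values, regulators of each list, and the 12 genes and 12 loci per direction with the smallest p-values that are not interferon-stimulated and have no such gene within 20 kb. Further exon-edge values, genes that were not called and genes without enough reads were named after their values were seen. Some genes that these rules name are not reported here. Some exon-edge regions can hold reads of spliced transcripts, and the balance of calls depends on the scaling, as given beside the counts.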

Additional observations from a re-analysis of the deposited data

Results flagged for a closer look

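The change after the pulse differed between SCR and IFNAR1sg cells, by a test of the difference itself in edgeR's model of all 12 libraries, for 10 genes named by the rule. In 3 of them the change was more positive in SCR cells. KRT18, a keratin, had a log2 change of 0.78 in SCR and -0.51 in IFNAR1sg cells, a difference of 1.29 ± 0.24 (adjusted p = 0.000115). The call held in each of 21 alternatives. PRDX1, a peroxiredoxin, had log2 changes of 0.64 in SCR and -0.04 in IFNAR1sg cells, a difference of 0.68 ± 0.16 (adjusted p = 0.0042). It was lost in 3 alternatives, among them those without SCR DMSO replicate 2 or SCR MPS1i replicate 2. SRSF6, an SR protein, rested on few reads, with 2.78 and 1.94 CPM in SCR MPS1i and 1.01 and 0.403 CPM in IFNAR1sg MPS1i libraries. Its difference of 3.81 ± 1.08 (adjusted p = 0.0414) was lost in 9 of 20 alternatives, 6 of which left out 1 library.

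In the other 7 the change was more negative in SCR cells. ENSA had log2 changes of -1.82 in SCR and -1.1 in IFNAR1sg cells, a difference of -0.72 ± 0.15 (adjusted p = 0.000512) that was lost in 1 alternative, without IFNAR1sg DMSO replicate 1. DUXAP8 and DUXAP10, near-identical copies, had differences of -0.52 ± 0.13 (adjusted p = 0.009) and -0.49 ± 0.12 (adjusted p = 0.0133), lost in 3 and 6 alternatives. POLA1, a subunit of the polymerase that primes replication, had log2 changes of -1.27 in SCR and -0.46 in IFNAR1sg cells, a difference of -0.81 ± 0.21 (adjusted p = 0.0175) lost in 5 alternatives. The splicing repressor PTBP2, STAG1 and PUM3 had differences of -0.93 ± 0.26 (adjusted p = 0.0321), -0.57 ± 0.15 (adjusted p = 0.0175) and -0.43 ± 0.12 (adjusted p = 0.0294), lost in 9, 8 and 10 alternatives. The log2 change was below 0 in both genotypes for each of these genes. Intronic reads took 28.0% and 27.8% of SCR MPS1i and 32.8% and 31.0% of IFNAR1sg MPS1i libraries, and the part of this in these differences was not tested.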

How the results depend on the processing

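For 305 single genes, exon-edge sums and loci named in the tables, 6574 values were recomputed. Of these, 6201 kept their direction and their call, 355 kept the direction and lost the call, and 18 reversed. These pooled counts include settings that left out only libraries outside the comparison, which changed few calls. Without both SCR IFNb libraries, for example, 304 values kept their call and 1 lost it. Losses were more frequent under settings that changed how exon-sharing reads were used. With libraries scaled to exon-sharing reads, 43 exon-edge sums kept their call and 31 lost it. With exon-sharing regions added, 164 gene sums kept their call, 25 lost it and 18 reversed. The reversals all arose when exon-sharing regions were added to gene sums that had been lower, which by construction adds the reads of the other readout. The log2 changes were then 0.33 for EIF2AK4, 0.51 for HSPA4, 0.41 for HSPA9, 0.16 for TXNRD1, 0.044 for ABCC2, 0.17 for PGD, 0.26 for CPS1, 0.29 for HPD, 0.053 for KYNU, 0.07 for GPI, 0.17 for PFKL, 0.64 for PKM, 0.093 for MSMO1, 0.39 for SRSF11, 0.087 for PTBP1, 0.15 for SRPK1, 0.056 for YAP1 and 0.31 for SKIL. The 15602 called regions became 8177 with the DESeq2 Wald test and 7017 with no filter on low counts, and 7297 to 16386 with each library left out. The 1696 called exon-edge sums became 904 with libraries scaled to exon-sharing reads. The 122 called retroviral loci became 55 with DESeq2, 61 with no filter, 224 with intronic regions included, 2139 with regions naming further repeats included, and 64 to 148 with each library left out. The 205 called differences between genotypes became 98 with DESeq2 and 125 to 291 with each library left out. Unless a sentence above says otherwise, the cause was not tested. Leaving out each library gave 4540 to 6610 called gene sums (6333 with all), 1274 to 1888 exon-edge sums and 4051 to 5775 gene sums against IFNb (5758 with all). Correlations of deviations between libraries of the same replicate number lay between -0.055 and 0.073 over genes. Counting error at low counts can hide a pairing, so these values do not exclude one. With the replicate block 16027 regions, 6349 gene sums, 1878 exon-edge sums, 121 retroviral loci, 207 differences between genotypes and 5765 gene sums against IFNb were called. With 2 libraries a group and many regions at few reads, changes of low loci were often not detectable at this depth.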
